A study of Mus musculus with 6 samples.

Results

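The annexins of mouse blastocysts were compared between embryos cultured with a synthetic mimic of the microRNA miR-30d and embryos cultured with a scrambled control. The group holds 8 genes, Anxa1, Anxa2, Anxa3, Anxa4, Anxa5, Anxa6, Anxa7 and Anxa11, out of 22485 named genes on the array. They were found by gene symbol, and all 11 of their features among 33026 named ones were used. Anxa1 and Anxa4 were taken up because earlier results of the same arrays had put them higher with the mimic. The other 6 genes belong to the same family. The differences between mimic and scramble are therefore given as a description, without a test.

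Whole blastocysts of the B6C3F1 hybrid strain were collected on day 5, in 3 scramble and 3 mimic samples. Females aged 6 to 8 weeks had received 10 IU of pregnant mare serum gonadotropin and 10 IU of human chorionic gonadotropin 48 hours later, and were mated. Their embryos were flushed from the oviduct on day 2 and cultured for 72 hours with 400 nM of the mir-30d mimic or of a scrambled oligonucleotide carrying the dye Alexa 488, with 30 embryos per condition. Both groups thus received a synthetic RNA, the dye is named for the control alone, and an effect of the dye cannot be told apart from one of miR-30d. Each array carried Cy3-labelled material made from 50 ng of total RNA of 1 sample. The deposited values are log2 signal, so a difference of 1 is a doubling, and the number of arrays limits the precision.

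Annexins are proteins that bind negatively charged membrane phospholipids when calcium is present, through a conserved core of repeated domains. Their amino-terminal tails differ between members and bind partner proteins, among them S100 proteins. They take part in vesicle trafficking, in exocytosis and endocytosis, in the link between membrane and actin, and in the repair of torn plasma membranes. Several are abundant in epithelia, and the trophectoderm is the first epithelium of the embryo.

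The 6 arrays were not equally precise. For the 387 genes with 10 or more features, the median SD of log2 signal over the features of a gene was 0.471 on scramble replicate 1 and 0.358 on mimic replicate 1, against 0.186 to 0.211 on the other arrays. The arrays labelled replicate 1 also held fewer distinct values, 2108 and 2683, against 4410 to 5979. Differences without these arrays are therefore given beside several of the annexins below. All 8 trophectoderm, 6 inner cell mass and 6 primitive endoderm markers lay above the brightness filter. Of these, 2 trophectoderm, 4 inner cell mass and 4 primitive endoderm markers read higher with the mimic, with median log2 differences of -0.11, 0.14 and 0.19. The trophectoderm keratin gene Krt8 read 14.99 to 15.12 with scramble and 14.48 to 14.98 with the mimic, narrowly without overlap. Cdx2, a trophectoderm regulator, read 13.00 to 13.73 and 12.14 to 13.10, with overlap. Elf5 and Tfap2c were the 2 trophectoderm markers that read higher, and both overlapped. Elf5 read 11.68 to 12.53 with scramble and 12.27 to 12.84 with the mimic, and Tfap2c 11.79 to 12.07 and 11.97 to 12.59. Nanog, an inner cell mass marker, read lower with the mimic without overlap (10.17 to 10.77 and 10.07 to 10.13), while 4 of that list read higher. Of the primitive endoderm markers, Cubn read higher with the mimic without overlap (10.85 to 11.33 and 11.49 to 11.77) and Dab2 lower without overlap (10.83 to 11.10 and 10.33 to 10.57). Groups without overlap were found for 5.58% of all genes on the higher and 4.12% on the lower side. The part of these lineage markers in the annexin values was not tested.

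Anxa1 and Anxa4 read higher on every mimic array than on any scramble array, and none of the other 6 annexins did. Anxa1 encodes annexin A1, which binds membranes, is a substrate of the epidermal growth factor receptor, and in its secreted form limits inflammation. Its brighter feature had log2 signals of 9.20, 9.90 and 9.59 in scramble replicates 1 to 3, and of 10.49, 10.76 and 10.59 in the mimic replicates. The highest scramble array stayed 0.59 below the lowest mimic array. The means were 9.56 ± 0.35 (SD, n = 3) and 10.61 ± 0.14 (SD, n = 3), a log2 difference of 1.05 (SE 0.20) or 2.07-fold.

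The dimmer feature of Anxa1 was also higher on every mimic array. It read 7.16, 8.19 and 7.53 with scramble and 8.90, 8.63 and 8.69 with the mimic, again without overlap. Its log2 difference was 1.11 (SE 0.34). Scramble replicate 1 lay near the median of features without a gene name, 7.22, and the part of background signal in it was not tested. The scramble values of both features spread more widely than the mimic values, and on both the lowest reading was that of scramble replicate 1. Without that array the log2 differences were 0.87 and 0.88, and without both replicate 1 arrays they were 0.93 and 0.80. The features of a gene read the same RNA, so they are no replicates of each other.

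Anxa4, whose product annexin A4 is abundant in secretory and absorptive epithelia, has a single feature. It read 10.80, 10.79 and 10.99 with scramble and 11.29, 11.63 and 11.51 with the mimic. The groups were 0.30 apart at their closest. Mean log2 signal was 10.86 ± 0.12 (SD, n = 3) in scramble and 11.48 ± 0.17 (SD, n = 3) in mimic embryos, so the log2 difference was 0.62 (SE 0.14), or 1.53-fold. Leaving out any 1 array kept this difference between 0.54 and 0.71, and it was 0.68 without both replicate 1 arrays.

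**Figure D1:**
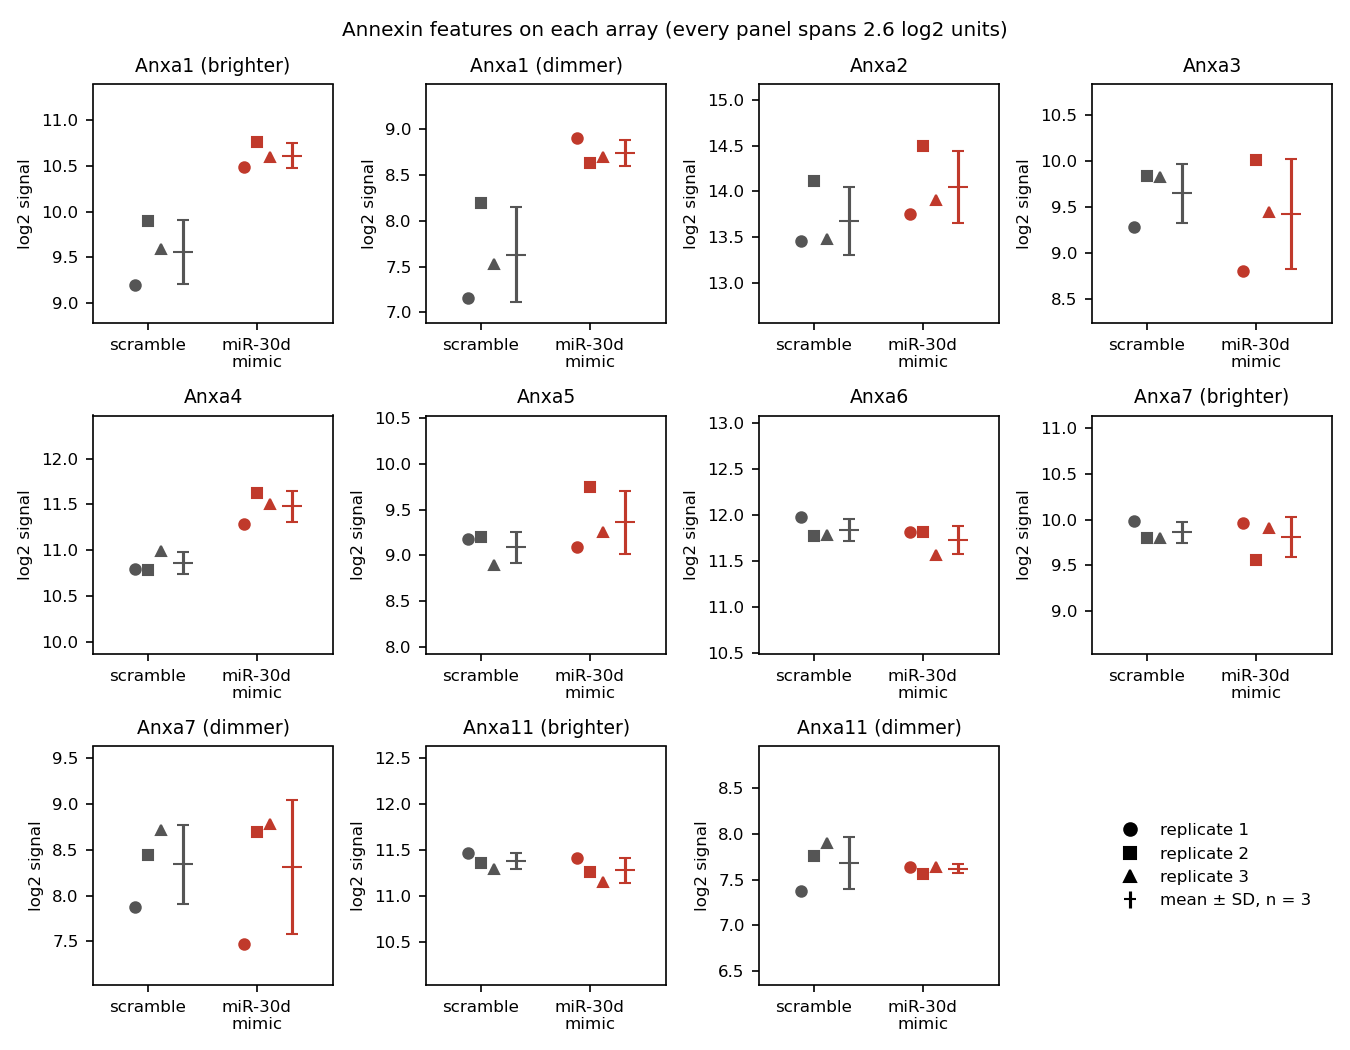
Log2 signal of the 11 features of the 8 annexins on each of the 6 arrays, with scramble in grey and the miR-30d mimic in red. Symbols mark replicate numbers and bars the mean ± SD of 3 arrays. The mimic values lie above all scramble values in both Anxa1 panels and in the Anxa4 panel, and the groups overlap in all other panels.

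In the limma fit over all 17399 genes kept, 0 genes (0%) had an adjusted p under 0.05, so none of the 8 annexins passed. An unadjusted p under 0.05 was reached by 552 genes (3.17%), and by 2 of the 8 annexins, Anxa1 and Anxa4. Non-overlapping groups with the mimic higher were found in 5.58% of all genes, and in the same 2 annexins. The mimic was lower without overlap in 4.12% of all genes and in 0 of the 8 annexins. The counts of 2 follow from how Anxa1 and Anxa4 were chosen. All members were chosen with earlier results of these data known, so nothing is read from any of these counts. Among all genes, 67 had a log2 difference at least as high as that of Anxa1 and 461 at least as high as that of Anxa4, those genes included. These are whole embryos, so more cells of a type and more RNA per cell cannot be told apart.

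Anxa2 also read higher with the mimic at every replicate number. How many of all genes did so was not counted, so nothing is read from this. Its product, annexin A2, forms a complex with S100a10 at the plasma membrane and organises actin there. Its log2 signal was 13.46, 14.11 and 13.48 with scramble and 13.75, 14.49 and 13.91 with the mimic. The groups overlapped, because scramble replicate 2 read above 2 of the mimic arrays. The log2 difference was 0.37 (SE 0.25). Replicate 2 was the highest array in both groups, and between same-numbered arrays the log2 difference was 0.29, 0.38 and 0.43. With the replicate number as a block in the limma fit the SE was 0.08, and the adjusted p of 0.482 still missed the threshold, which 0.00575% of all genes passed in that fit. Leaving out mimic replicate 2 gave 0.15, and leaving out scramble replicate 2 gave 0.58.

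Reference promoter windows from RefSeq (GRCm38.p6) were found for 6 of the 8 genes, all but Anxa3 and Anxa6. Each runs from 250 bases before the annotated start into the first 50 bases of the transcript. The windows of the 3 genes with the highest mean differences are shown, to set side by side the genes that read higher with the mimic at every replicate number. Capitals mark matches on either strand to 5 motifs, none of which overlapped another. They are the TATA box, spelled TATAAA, and the CCAAT box. The GC box was spelled GGGCGG. For the factor AP-1 the letters were TGANTCA. For TEAD factors, which act in the trophectoderm, they were GGAATG. The Anxa1 gene lies at chr19:20373434-20390671, minus strand, and its window at chr19:20390622-20390921. The Anxa4 gene lies at chr6:86736840-86793634, minus strand, and the window of the more upstream of its 2 starts at chr6:86793535-86793834. The Anxa2 gene lies at chr9:69453683-69491792, plus strand, and its window at chr9:69453433-69453732.
Anxa1: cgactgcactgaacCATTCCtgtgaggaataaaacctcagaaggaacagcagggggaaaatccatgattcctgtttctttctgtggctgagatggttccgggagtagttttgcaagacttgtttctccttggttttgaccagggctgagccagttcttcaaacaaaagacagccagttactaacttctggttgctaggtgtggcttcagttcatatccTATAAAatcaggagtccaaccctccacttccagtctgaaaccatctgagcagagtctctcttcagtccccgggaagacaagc
Anxa4: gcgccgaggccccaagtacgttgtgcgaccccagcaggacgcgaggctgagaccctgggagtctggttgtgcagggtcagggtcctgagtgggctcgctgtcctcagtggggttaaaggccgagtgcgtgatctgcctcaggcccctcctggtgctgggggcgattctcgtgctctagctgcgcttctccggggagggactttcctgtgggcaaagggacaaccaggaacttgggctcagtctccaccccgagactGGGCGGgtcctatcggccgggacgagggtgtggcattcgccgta
Anxa2: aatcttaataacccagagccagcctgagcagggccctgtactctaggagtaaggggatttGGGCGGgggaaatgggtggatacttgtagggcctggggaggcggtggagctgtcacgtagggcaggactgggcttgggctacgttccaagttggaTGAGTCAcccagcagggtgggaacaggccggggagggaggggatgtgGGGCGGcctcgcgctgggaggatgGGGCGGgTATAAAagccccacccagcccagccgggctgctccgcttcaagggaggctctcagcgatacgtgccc

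The 3 windows differ in composition. The Anxa1 window holds 3 CpG dinucleotides and is 47.3% G and C, with a TATA box beginning 32 bases before the start and 1 TEAD match. The Anxa4 window holds 20 CpG, is 65.3% G and C, and has 1 GC box and no TATA box. The Anxa2 window holds 13 CpG and has a TATA box, 3 GC boxes and 1 AP-1 match. Over the 32851 promoter windows of the same length the median was 7 CpG, and 13.6% held the TATA box, 37.4% the CCAAT box, 35.7% the GC box, 7.8% the AP-1 motif and 14.7% the TEAD motif. No motif searched for was present in all 3 windows. The windows of Anxa5, Anxa7 and Anxa11, like that of Anxa4, had no TATA box, AP-1 or TEAD match. The GC box was found 1 and 4 times in the 2 Anxa7 windows, 3 times in the Anxa11 window and not in the Anxa5 window. A match is a description of letters and not a bound site.

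Anxa5 and Anxa3 varied from array to array without a separation of the groups. Anxa5 encodes annexin A5, known for its binding to phosphatidylserine on dying cells. It read 9.18, 9.20 and 8.89 with scramble and 9.09, 9.75 and 9.25 with the mimic, and its log2 difference was 0.27 (SE 0.23). Mimic replicate 1 fell within the scramble range and mimic replicate 2 was the highest array. Without mimic replicate 2 the difference was 0.08, and without both replicate 1 arrays it was 0.45.

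Anxa3, which encodes annexin A3, read 9.28, 9.84 and 9.83 with scramble and 8.80, 10.01 and 9.45 with the mimic. Its lowest and its highest array were both mimic arrays. The log2 difference of -0.23 (SE 0.31) was smaller than its SE. It was 0.08 without mimic replicate 1 and -0.10 without both replicate 1 arrays, so the sign depended on which arrays were left out.

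Anxa6, Anxa7 and Anxa11 had the smallest differences of the 8. Annexin A6 is the member with a doubled core, and takes part in endosomal and cholesterol traffic. Anxa6 read 11.98, 11.77 and 11.78 with scramble and 11.82, 11.82 and 11.56 with the mimic, and its log2 difference was -0.11 (SE 0.14). Annexin A11, which has a long amino-terminal tail and links RNA granules to lysosomes, was read by 2 features with log2 differences of -0.10 (SE 0.13) and -0.06 (SE 0.26). The brighter one lay at 11.47, 11.36 and 11.30 with scramble and at 11.42, 11.26 and 11.15 with the mimic, so that the groups overlapped. Without mimic replicate 1 they did not, with the mimic lower, as was then the case for 9.05% of all genes.

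Anxa7, whose product annexin A7 was first described as synexin, a protein that fuses secretory granules, also has 2 features. The brighter read 9.99, 9.80 and 9.80 with scramble and 9.96, 9.56 and 9.91 with the mimic, and its log2 difference was -0.05 (SE 0.17). The dimmer had -0.03 (SE 0.42), with its lowest value, 7.47, on mimic replicate 1 and its next lowest, 7.88, on scramble replicate 1. With an SE of 0.42, a difference of the size seen for Anxa4 would lie within 2 SE of 0 on this feature. On the brightest feature of each gene, 4 of the 8 annexins read higher and 4 read lower with the mimic. Their median log2 difference was 0.11, against 0.02 over all genes, of which 53.2% were higher.

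**Figure D2:**
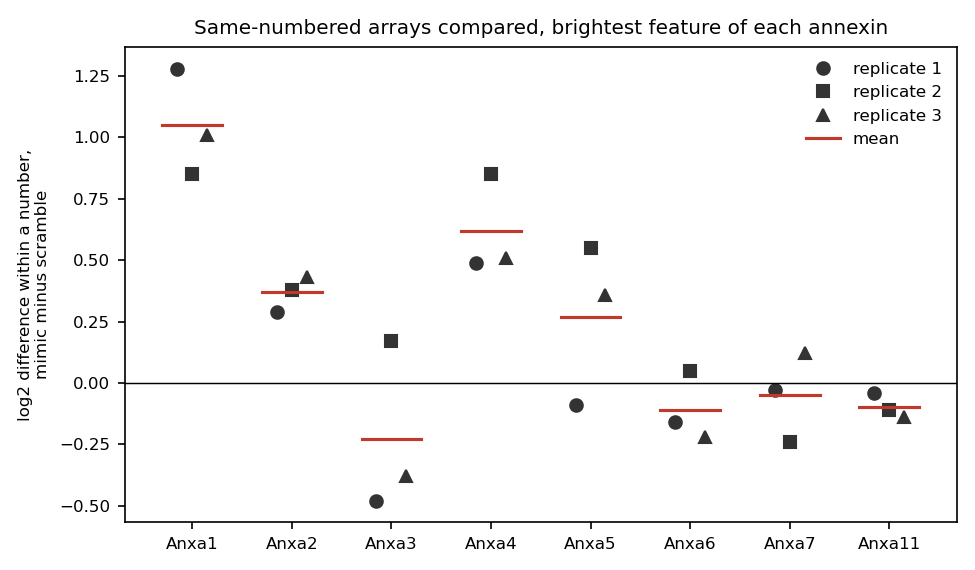
Log2 difference between same-numbered arrays, mimic minus scramble, for the brightest feature of each of the 8 annexins, with the mean as a red line. Anxa1, Anxa2 and Anxa4 lie above 0 at all 3 numbers, Anxa11 lies below 0 at all 3, from -0.14 to -0.04, and the other 4 have both signs. The share of all genes with the same sign at all 3 numbers was not counted.

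The 4 annexins outside the group were Anxa8, Anxa9, Anxa10 and Anxa13, and on their brightest features all had a lower mean with the mimic. Anxa8 has 11 features, of which 8 had a lower and 3 a higher mean with the mimic, from -0.57 to 0.49 in log2 difference. That width came with the replicate 1 arrays. Between these arrays the 11 features of this single gene differed by -1.13 to 1.58, against -0.25 to 0.02 between the replicate 2 arrays and -0.38 to 0.05 between the replicate 3 arrays. The same scatter within an array bears on any annexin read by a single feature.

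Anxa9, which encodes an atypical annexin, read 9.15, 8.38 and 8.42 with scramble and 8.25, 8.16 and 8.28 with the mimic. The mimic values lay below all scramble values, by 0.10 at the closest. Its log2 difference was -0.42 (SE 0.30), and -0.17 without scramble replicate 1. The brightest Anxa8 feature also read lower with the mimic without overlap, with a log2 difference of -0.41 (SE 0.26), and -0.17 without scramble replicate 1. Its groups were 0.05 apart at their closest, and on the next brightest Anxa8 feature they overlapped, at -0.20 (SE 0.24). Of the 3 other annexins that passed the filter these 2 did not overlap on the lower side, against 4.12% of all genes. Anxa10 read 6.63, 7.36 and 8.40 with scramble and 7.29, 6.90 and 7.12 with the mimic, and the mimic values lay within the scramble range. Its log2 difference was -0.37 (SE 0.39), -0.88 without both replicate 1 arrays and 0.10 without scramble replicate 3. Anxa13, an annexin of intestinal and kidney epithelium, fell under the filter on dim features, set at a mean of 7.16. It read 7.29, 7.29 and 7.19 with scramble and 6.77, 6.69 and 6.72 with the mimic. These values did not overlap, but features without a gene name had a median of 7.22, and the part of background signal in such dim values was not tested.

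**Figure D3:**
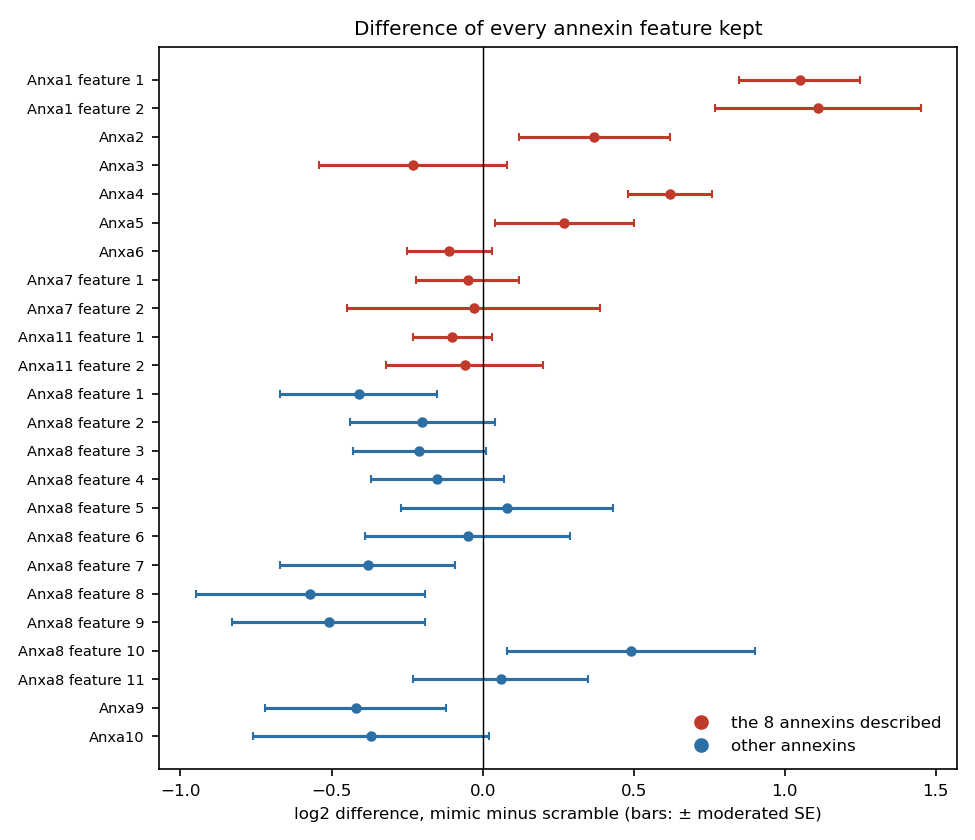
Log2 difference, mimic minus scramble, of every annexin feature that passed the brightness filter, with bars of ± 1 moderated SE from the fit over all features. Red points are the 8 annexins described and blue points the other annexins. Both Anxa1 features and Anxa4 lie farthest to the right, and the 11 Anxa8 features lie on both sides of 0, from -0.57 to 0.49.

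**Figure D4:**
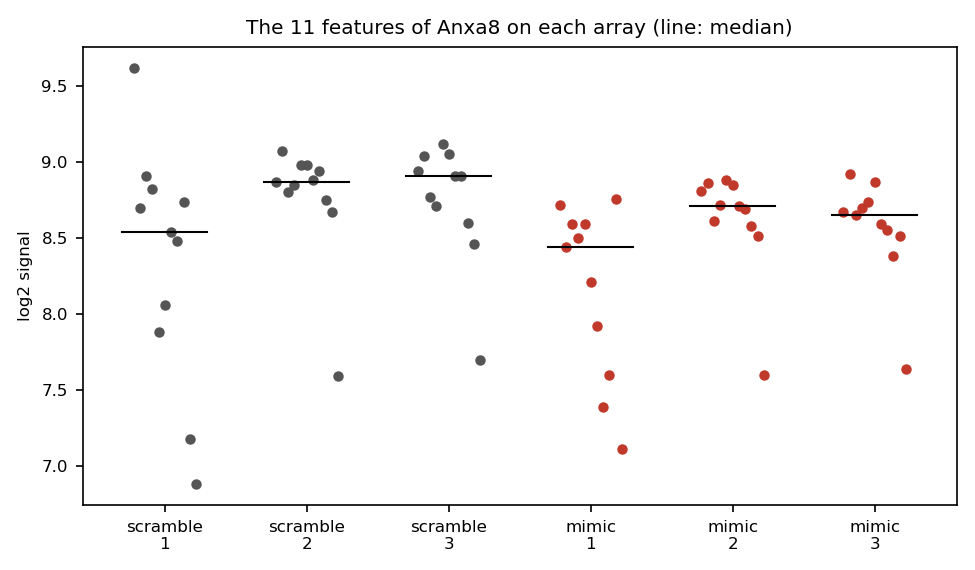
Log2 signal of the 11 Anxa8 features on each array, with scramble in grey, mimic in red and the median as a line. The features spread from 6.88 to 9.62 on scramble replicate 1, and from 7.59 to 9.07 on scramble replicate 2.

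Of 14 genes listed as partners of annexins, 12 were on the array and 10 passed the filter. Of these 10 genes 8 read higher with the mimic and 2 read lower, their median difference was 0.12 in log2, and 0 passed the adjusted threshold in limma, where 0% of all genes did. S100a6, which encodes a calcium-binding partner of several annexins, was the 1 gene of the 10 with an unadjusted p under 0.05, against 1.66% of all genes on the higher and 1.51% on the lower side. It read 11.34, 11.18 and 11.20 with scramble and 12.32, 11.84 and 11.66 with the mimic, for a log2 difference of 0.70 (SE 0.18). The groups did not overlap, as was the case on the higher side for 5.58% of all genes. Without mimic replicate 1 the difference was 0.51, and without both replicate 1 arrays it was 0.56.

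The other 9 partners had an unadjusted p of 0.05 or more. S100a10, the partner of annexin A2, had a log2 difference of 0.11 (SE 0.20) and S100a11, which binds annexin A1, had 0.17 (SE 0.17). Ahnak, a giant scaffold recruited by the complex of annexin A2 and S100a10, had 0.15 (SE 0.13) on its brightest feature, while its 4 features had both signs. S100a4 had 0.46 (SE 0.26) near the dim end, and 0.18 without mimic replicate 1, which read 8.00 against 7.22 and 7.14. Its second feature, under the filter, had -0.19. Plat, the tissue plasminogen activator that annexin A2 binds on endothelium, had -0.64 (SE 0.38), with scramble replicate 1 at 8.95 and all other arrays at most at 7.83. Its groups did not overlap, and without scramble replicate 1 it had -0.23. Fpr2, which encodes a receptor of secreted annexin A1, read 6.86 to 7.37 and Pla2g4a, a phospholipase that annexin A1 inhibits, read 6.63 to 7.53, and both fell under the filter. Fpr1 and Fpr3 were not analysed here.

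The genes whose brightest feature ran most closely with that of Anxa1 over the 6 arrays were Dst (Pearson r = 0.9949), Bloc1s2 (0.9937), Luzp4 (0.9933), Txnrd2 (0.9887) and Ctsc (0.9882). Ctsc, which encodes a lysosomal peptidase, had the widest difference of them at 0.87 (SE 0.14), and the other 4 had 0.41 to 0.49. Those nearest to Anxa4 were Krcc1 (0.9844), Fam162a (0.9708), Dlg2 (0.9659), Srsf12 (0.9629) and Tinagl1 (0.9619), with log2 differences of 0.21 to 0.60. Luzp4, Dlg2 and Srsf12 had mean levels of 7.20, 7.21 and 7.25, at the median of features without a gene name. All 10 were picked from 17399 genes for this likeness over 6 arrays that include the group difference, so they are named as a description only.

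Annexins A1 and A2 are abundant in leukocytes, stroma and epithelia, so markers of cells that could accompany flushed embryos were read on the same arrays. Of 7 blood markers, Ptprc, a pan-leukocyte marker, read 6.81 to 7.39, the macrophage and granulocyte gene Lyz2 6.92 to 7.14 and the haemoglobin gene Hba-a1 6.72 to 7.24, near the median of unnamed features. The log2 of the summed signal of the blood markers was 11.64 to 11.93 with scramble and 11.89 to 12.47 with the mimic. S100a9 made up much of it, at 11.11 to 11.32 with scramble and 11.33 to 12.01 with the mimic, and S100a8 read 7.81 to 9.15 and 9.22 to 9.69. Neither gene overlapped, as was the case on the higher side for 5.58% of all genes. Of the 5 blood markers that passed the filter, only these 2 had a higher mean, and the median log2 difference was -0.11. The part of S100a8 and S100a9 in the annexin values was not tested.

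Of the 6 stromal markers the median lay at 7.11 to 7.24 with scramble and 7.13 to 7.22 with the mimic, and the summed signal at 9.68 to 9.86 and 9.72 to 9.79. For 6 cumulus markers the summed signal was 9.62 to 9.88 and 9.62 to 10.14. The oviduct list summed to 12.07 to 12.22 and 12.13 to 12.15, carried by Wfdc2 at 11.80 to 11.96, while Ovgp1, the oviduct glycoprotein, read 6.80 to 7.41. Endothelial markers summed to 10.53 to 11.78 and 10.30 to 11.57, carried by Kdr, and sperm markers to 9.17 to 9.42 and 9.15 to 9.31. The stromal and oviduct sums of the mimic arrays lay within the scramble range, and the highest blood and cumulus sums lay above it. The highest cumulus sum was that of mimic replicate 1. On that array, which was among the less precise, Fshr read 8.05 and Has2 7.74, against at most 7.08 and 7.34 on the other mimic arrays. With scramble they read 6.71 to 6.95 and 7.18 to 7.24, so both were higher with the mimic without overlap. The same held for 5.58% of all genes kept. Of the 6 cumulus markers 2 passed the brightness filter, and Fshr did not.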

How the data were processed

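The authors deposited log2 signal of 45220 features for each of 6 Cy3 arrays. For background correction and normalization the method was not given in the sources used here. Medians of the arrays were 7.366 to 7.376, and if the authors equalised the arrays, a change shared by most genes cannot be seen. No detection flags were used here. Features were named from the platform annotation. Of 33026 named features, 32438 (98.2%) were matched by Entrez identifier to RefSeq (GRCm38.p6) and took its symbol. Repeated features were not averaged.

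Named features whose mean over the 6 arrays fell in the lowest 25% were dropped, which kept all 11 annexin features described. Mimic was compared with scramble with limma 3.58.1 under R 4.3.3, as a two-sided moderated test with an intensity trend and Benjamini-Hochberg adjustment over the whole table, on features and on the brightest feature of each gene. The fit was tested on simulated data. Each difference subtracts scramble from mimic and carries limma's moderated SE. The labels do not say whether the 3 samples of a group came from separate matings, so errors measure the spread between these samples. The members, the partner list, the marker lists and the promoter motifs were chosen with earlier results of these data known. The rule for named genes took all annexins, the 5 partners with the smallest p, and the 5 genes most correlated with Anxa1 and with Anxa4. The other partners and the markers were named after their values were seen.

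After the group means were removed, same-numbered arrays correlated at 0.328, 0.349 and 0.204. They met the rule used to treat the numbers as pairs (every pair over 0.1), which is read from the data and not from the labels. Differently numbered arrays also reached 0.185, between scramble replicate 2 and mimic replicate 3, and 0.124, between scramble replicate 3 and mimic replicate 2. Matching replicates 2 and 3 crosswise would thus meet the rule too, so the rule cannot establish the pairing of these arrays. The SEs and p-values given are from the fit without this pairing, except where the block is named. With the block in the limma fit of genes, Anxa1 had an SE of 0.13 (adjusted p 0.189) and Anxa4 of 0.11 (adjusted p 0.351).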

Additional observations from a re-analysis of the deposited data

How the results depend on the processing

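Across 14 alternatives (filter, normalization, trend, replicate block, averaging of features, arrays left out), 0 annexins and 0 partner genes passed the adjusted threshold. Both Anxa1 features and the Anxa4 feature kept their sign in the 13 alternatives that apply to single features. With arrays left out, this follows from groups that do not overlap. Filter, trend and block leave the difference itself unchanged, so nothing is read from the kept sign. With the replicate block 1 of all genes passed, no annexin, and the block changed no call of an annexin or partner. Genes at an unadjusted p under 0.05 numbered 552, but 1260 with the replicate block, where Anxa2 joined Anxa1 and Anxa4 to make 3 annexins, 1000 without both replicate 1 arrays, and 362 (without mimic replicate 2) to 919 (without scramble replicate 2) with 1 array left out. The annexin median of 0.11 went from 0.05 (without scramble replicate 3) to 0.25 (without mimic replicate 1), and to 0.17 without both replicate 1 arrays. Annexins not overlapping on the lower side went from 0 to 1 (Anxa11) without mimic replicate 1 or both replicate 1 arrays, where 9.05% and 15.2% of all genes did so. On the higher side they went from 2 to 3, with Anxa5 in the same 2 settings (14.6% and 20.5% of all genes) and with Anxa2 without scramble replicate 2 (14.7%). With 1 array left out, Anxa3 ranged from -0.52 to 0.08, Anxa7 from -0.13 to 0.08 on its brighter and -0.27 to 0.39 on its dimmer feature (0.16 without both replicate 1 arrays), and dim Anxa11 from -0.22 to 0.05. The cause was not tested. Signal near the level of unnamed features limits Anxa10, Anxa13, S100a4, Fpr2, Pla2g4a, Luzp4, Dlg2 and Srsf12. It also limits the dimmer Anxa1 feature on scramble replicate 1. The counts over all genes, the non-overlap shares with arrays left out, and the features, other annexins and partners without replicate 1 arrays were added after seeing the data.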
